A study of Mus musculus with 12 samples.

Results

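Tmem176a and Tmem176b are neighbouring mouse genes that encode related membrane proteins. They were followed through 4 Affymetrix probe sets of the 45101 on each array, 3 annotated to Tmem176a and 1 to Tmem176b alone, which makes 2 of the 18193 genes tested. The pair was selected on the values of the liver comparison, in which both genes were among those lower in knockout livers. Their liver values are therefore given as a description with no test, and tests are given for the F9 cells and for other genes.

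Expression was measured on 12 arrays in 4 groups of 3. Liver came from male C57BL/6 mice at 3 months of age, either controls or mice in which the selenophosphate synthetase gene SPS1 (Sephs1) was deleted in hepatocytes by Cre recombinase under the albumin promoter (Alb-Cre). The albumin promoter drives Cre in hepatocytes and their precursors, so cells of another origin, such as Kupffer and endothelial cells, are not its targets, and the labels do not say which alleles the control mice carried. F9 is a male mouse embryonal carcinoma line from a testicular teratoma of strain 129, measured as control cells and as cells with an shRNA against Sephs1 (shSPS1). The labels call all samples biological replicates but do not say what the F9 control received or whether each F9 sample was a culture of its own. The p-values for F9 cells therefore describe the spread between these samples, which may be technical.

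TMEM176A and TMEM176B cross the membrane several times and are distant relatives of the MS4A family, to which the B cell protein CD20 belongs. They sit mainly in membranes inside the cell, where they have been described as cation channels. Both are abundant in monocytes, macrophages and dendritic cells, and in mouse dendritic cells Tmem176b has been linked to antigen presentation and to restraint of the NLRP3 inflammasome, a complex that activates interleukin 1 beta. In human liver, TMEM176A was first described as an antigen associated with hepatocellular carcinoma.

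The 2 genes lie on chromosome 6 on opposite strands and have annotated start sites next to each other. In the RefSeq annotation of GRCm38.p6 the whole span of Tmem176a lies within the longer span of Tmem176b on the other strand. RefSeq promoter windows, which run from 250 bases before to 50 after a start site, were found for both genes, 2 for Tmem176a and 3 for Tmem176b. The windows with the nearest start sites, 109 bases apart, are shown because both genes have annotated start sites in this stretch. The span of Tmem176b also reaches past Tmem176a, so Tmem176b has a start outside these windows as well. The first is chr6:48841233-48841532 on the plus strand and the second chr6:48841325-48841624 on the minus strand. Capitals mark the 208 bases that both windows hold, each on its own strand.
Tmem176a: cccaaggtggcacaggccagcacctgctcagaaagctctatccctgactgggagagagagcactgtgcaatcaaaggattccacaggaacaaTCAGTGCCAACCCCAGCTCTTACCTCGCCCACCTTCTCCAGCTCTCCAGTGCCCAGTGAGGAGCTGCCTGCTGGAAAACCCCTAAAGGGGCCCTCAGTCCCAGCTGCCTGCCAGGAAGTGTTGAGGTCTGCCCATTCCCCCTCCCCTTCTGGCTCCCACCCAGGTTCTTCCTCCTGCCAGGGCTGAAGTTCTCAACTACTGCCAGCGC
Tmem176b: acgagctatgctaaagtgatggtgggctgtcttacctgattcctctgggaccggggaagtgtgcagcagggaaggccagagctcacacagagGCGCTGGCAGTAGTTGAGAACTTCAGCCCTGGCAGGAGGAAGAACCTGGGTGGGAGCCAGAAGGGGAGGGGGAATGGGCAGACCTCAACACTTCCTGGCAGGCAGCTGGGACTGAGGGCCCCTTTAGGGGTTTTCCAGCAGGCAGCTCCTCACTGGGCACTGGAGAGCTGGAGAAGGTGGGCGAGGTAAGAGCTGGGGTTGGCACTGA
Such an overlap of divergent windows was found for 10.9% of the 27025 genes with a window. Of 9 motifs searched on both strands, 8 were in none of the 5 windows: the TATA box TATAAA (in 13.6% of all 32851 windows), the CCAAT box CCAAT (37.4%), the GC box GGGCGG (35.7%), the E box CACGTG (7.15%), the AP-1 site TGANTCA (7.81%), the antioxidant response core TGACNNNGC (12.4%), the nuclear receptor motif AGGTCA (16.3%) and the C/EBP site TTGCNNAA (10.8%). No motif of the 9 contains another. The core GAGGAA, bound by PU.1 and other ETS factors, was in both windows of Tmem176a and in 1 of the 3 of Tmem176b, and in 28.3% of all windows. In the shared bases it occurs once, on the strand of Tmem176b, with its first base at position -123 from that gene's start site. The printed Tmem176b window holds a second match on the opposite strand, at -211. The 5 windows hold 1 to 5 CpG, against a median of 7 over all windows.

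Tmem176a transcript was abundant in control livers and lower in knockout livers. In its brightest liver probe set (1423909_at) the log2 signal was 12.67, 12.62 and 12.86 in the 3 control livers. It was 8.69, 8.88 and 9.25 in the 3 knockout livers. The groups lay 3.37 apart at their nearest arrays, more than the whole range within either group. The means were 12.72 ± 0.13 in control and 8.94 ± 0.28 in knockout livers (SD, n = 3 each), a difference of -3.77, which is 13.7-fold lower, or 7.31% of the control signal. Whole liver holds several cell types, and fewer cells of a type cannot be told apart from less RNA per cell.

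The other Tmem176a probe sets also put every knockout liver below every control. Probe set 1441811_x_at, of a design whose probes can also match other sequences, gave 11.87, 11.74 and 11.89 in control livers. It gave 8.69, 8.62 and 9.06 in knockout livers, a difference of -3.04 (8.23-fold lower). Probe set 1425603_at gave 10.95, 11.04 and 11.21 in control livers. It gave 8.28, 8.06 and 8.01 in knockout livers, a difference of -2.95 (7.72-fold lower). The size of the fall thus depended on the probe set, while its direction was the same in all of them.

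Tmem176b transcript was lower as well, by less. Its probe set 1418004_a_at gave 12.61, 12.34 and 12.80 in control livers. It gave 10.11, 10.08 and 10.38 in knockout livers, so the groups lay 1.97 apart at their nearest arrays. The means were 12.59 ± 0.23 in control and 10.19 ± 0.16 in knockout livers (SD, n = 3 each), a difference of -2.40, which is 5.26-fold lower, or 19.0% of the control signal. In both genes a clear signal was left in knockout livers. On the knockout arrays the Tmem176b probe set was brighter than 86.9% to 88.7% of all probe sets, and the 3 of Tmem176a were brighter than 70.7% to 81.1%. On the control arrays the 4 probe sets were brighter than 91.6% to 97.3%.

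**Figure D1:**
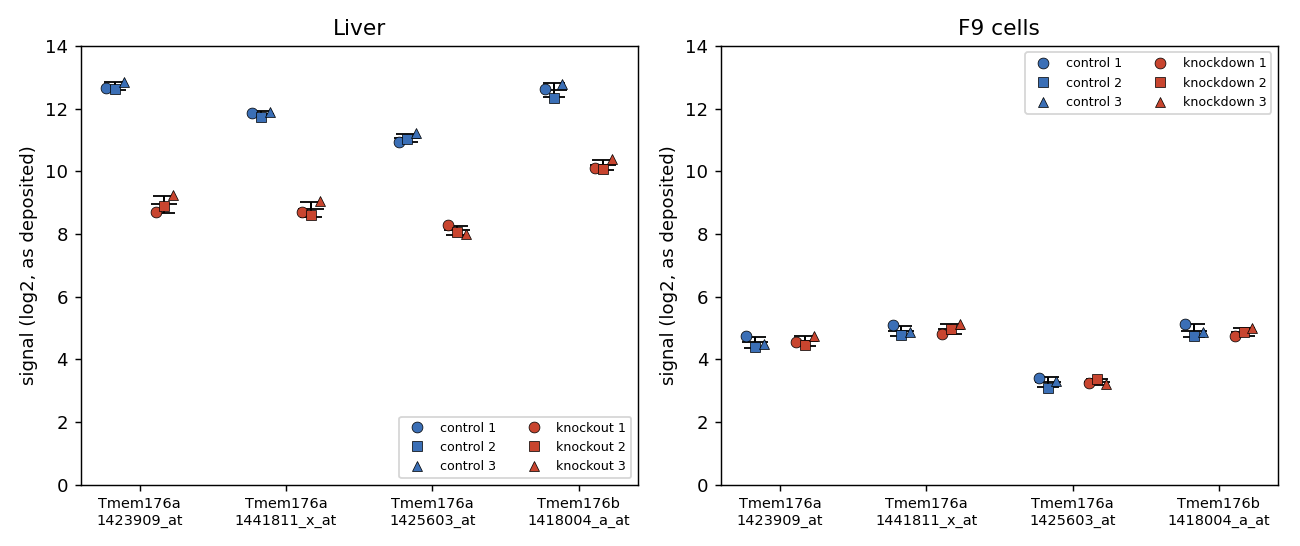
Signal (log2, as deposited) of the 3 Tmem176a probe sets and the Tmem176b probe set on each array, in liver (left) and F9 cells (right); points are arrays, bars show the mean and SD of 3. In liver every knockout array lies below every control array in all 4 probe sets, and in F9 cells the groups overlap in all 4, between 3.10 and 5.14.

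Both genes belong to the tail of the liver comparison. Of 18193 genes, 5 had a difference of -3.77 or lower, Tmem176a among them, and 35 had one of -2.40 or lower, Tmem176b among them, while the median over all genes was 0.03. Both counted among the 6 genes that limma called lower at a Benjamini-Hochberg adjusted p under 0.05 (0.0330% of all genes, with 2 called higher, 0.0110%), which is the call that led to their choice. That call held for Tmem176a in 8 of 14 alternative settings of the analysis, and for Tmem176b in 4 of 14. All 3 knockout arrays lay below all 3 control arrays in 4 of the 4 probe sets of the pair, against 6.00% of the 34945 probe sets with 1 gene. Nothing is read from these shares, since the pair was taken from this comparison.

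**Figure D2:**
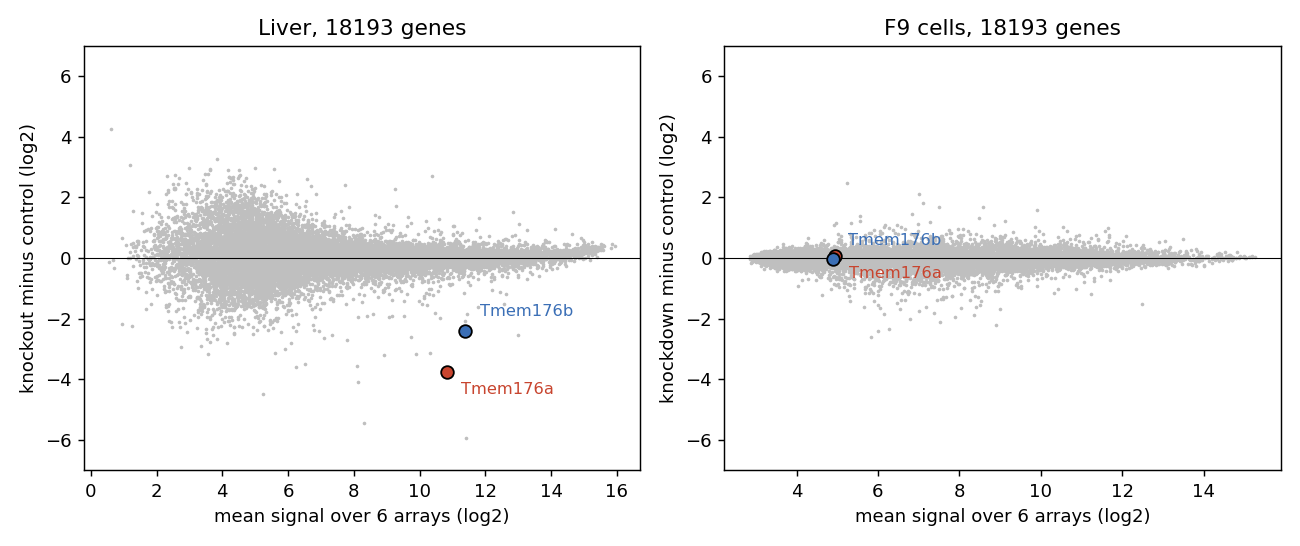
Treated minus control difference (log2) against the mean signal over the 6 arrays (log2) for 18193 genes, each by its brightest probe set, in liver (left) and F9 cells (right). Tmem176a (-3.77) and Tmem176b (-2.40) stand among bright genes below the cloud in liver, and lie inside it in F9 cells (0.06 and -0.04).

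Some features of the arrays moved with the liver groups. The hybridisation controls, labelled bacterial RNA added to each hybridisation mix, were 12.12 to 12.53 on control and 12.91 to 12.96 on knockout arrays (0.66 higher, exact permutation p = 0.1, two-sided, the smallest that 3 against 3 allows). The 3' minus 5' signal of beta-actin, a measure of RNA integrity and labelling, was 1.08 to 1.22 on control and 1.28 to 1.42 on knockout arrays (exact permutation p = 0.1), while that of Gapdh was -0.29 to -0.24 and -0.31 to -0.25 (exact permutation p = 0.6). Their part in the result was not tested. Sephs1 itself was 9.84 ± 0.10 in control and 10.03 ± 0.13 in knockout livers (SD, n = 3 each), a difference of 0.19 (limma adjusted p = 0.789). The deleted part of the gene is not given in the labels, and a probe set outside it does not register the loss, so the knockout livers are called so by their label. In F9 cells Sephs1 fell by 2.20 (limma adjusted p = 1.3e-05).

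In F9 cells neither gene gave more than a dim signal, with or without the shRNA. The brightest Tmem176a probe set there, 1441811_x_at, gave 5.09, 4.76 and 4.86 in control cells and 4.80, 4.96 and 5.14 in knockdown cells. The groups overlapped, with a difference of 0.06 (limma, SE 0.12, 95% interval -0.21 to 0.32, adjusted p = 0.843). Probe set 1423909_at, the brightest of Tmem176a in liver, gave 4.40 to 4.74 in control and 4.45 to 4.75 in knockdown cells. Probe set 1425603_at gave 3.10 to 3.41 in control and 3.19 to 3.38 in knockdown cells, brighter than only 1.53% to 6.60% of all probe sets. In 0 of the 4 probe sets of the pair did all knockdown arrays lie below all control arrays, against 12.8% of probe sets with 1 gene.

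Tmem176b gave 5.13, 4.74 and 4.88 in control and 4.75, 4.88 and 5.01 in knockdown F9 cells. The difference was -0.04 (limma, SE 0.11, 95% interval -0.30 to 0.22, adjusted p = 0.892), and the groups overlapped. Of all genes tested in F9 cells, 7.20% were called (4.64% lower and 2.56% higher), and neither Tmem176a nor Tmem176b was among them. The 3' minus 5' signals of beta-actin and Gapdh differed by -0.22 and -0.12 between knockdown and control F9 cells (exact permutation p = 0.1 each). The poly-A controls, RNA added before labelling, were 7.56 to 8.09 in control and 6.19 to 7.35 in knockdown F9 cells (no overlap, exact permutation p = 0.1). Their part in these values was not tested. The probe sets of the pair lay below the median of all probe sets on every F9 array (5.33 to 5.39). For scale, 13 hepatocyte genes such as the albumin gene Alb had control F9 levels of 3.60 to 5.81 (median 4.75). At such levels a change in transcript may not show, so the intervals bound the signal and not the RNA. In the same cells the markers of embryonal carcinoma were bright (9 of 9 at 9.26 or above in control cells), among them Pou5f1, which encodes the pluripotency factor OCT4, at 13.50.

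Liver and F9 values come in separate tables of unlike distributions, with the normalisation not given in the sources used here, so the groups are put in order within each tissue only. In liver the control group was above the knockout group in both genes, beyond the spread of the arrays. In F9 cells control and knockdown did not differ beyond it.

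The fall in liver was unequal between the neighbours as the arrays show it. The Tmem176a signal (1423909_at) minus the Tmem176b signal on the same array was 0.06, 0.28 and 0.06 in control livers. It was -1.42, -1.20 and -1.13 in knockout livers, a difference of means of -1.38. With the other Tmem176a probe sets the same quantity differed by -0.65 (1441811_x_at) and -0.55 (1425603_at), and the knockout and control arrays did not overlap in either. The liver values of both genes chose them, so this difference is a description with no test. Probe sets differ in how their signal follows the RNA, so these values are differences of signal and the true ratio of the RNAs was not measured. In F9 cells the 1441811_x_at signal minus that of Tmem176b was -0.01 ± 0.03 in control and 0.09 ± 0.04 in knockdown cells (SD, n = 3 each; difference 0.10, exact permutation p = 0.1, two-sided, the smallest possible). With 1423909_at the difference was 0.08 (exact permutation p = 0.4) and with 1425603_at 0.04 (exact permutation p = 0.7). All 4 probe sets lay below the array medians there, where small differences of log2 signal carry little.

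Within the liver groups the neighbours partly moved together. Control liver 3 had the highest value of its group in all 4 probe sets, by 0.06 to 0.22 above the group mean. Control liver 2 lay below the group mean in all 4, from -0.24 to -0.03. Control liver 1 was mixed, with 2 of the 4 above the group mean (-0.12 to 0.03). Among knockout livers, number 2 lay below the group mean in all 4 probe sets, from -0.17 to -0.06. Knockout liver 1 was mixed, with 1425603_at above the group mean (0.17) and the other probe sets below it (-0.25 to -0.08). Knockout liver 3 was the highest in Tmem176b and in 2 Tmem176a probe sets (up to 0.31 above the mean) and the lowest in the third, 1425603_at (-0.11). The median of all genes deviated by at most 0.04 from its group mean on any liver array. The 6 livers fall into 2 separate clusters by group, so no correlation over them is given, and 3 arrays per group are too few for one within a group. In control F9 cells all 4 probe sets had the same order, array 1 the highest and array 2 the lowest. In knockdown F9 cells the order differed between probe sets, with array 3 the highest in 3 of the 4 and the lowest in 1425603_at. F9 control array 1 also had the highest lower quartile of all probe sets (4.15, against 4.04 and 4.05 on the other control arrays), and its part in that order was not tested.

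**Figure D3:**
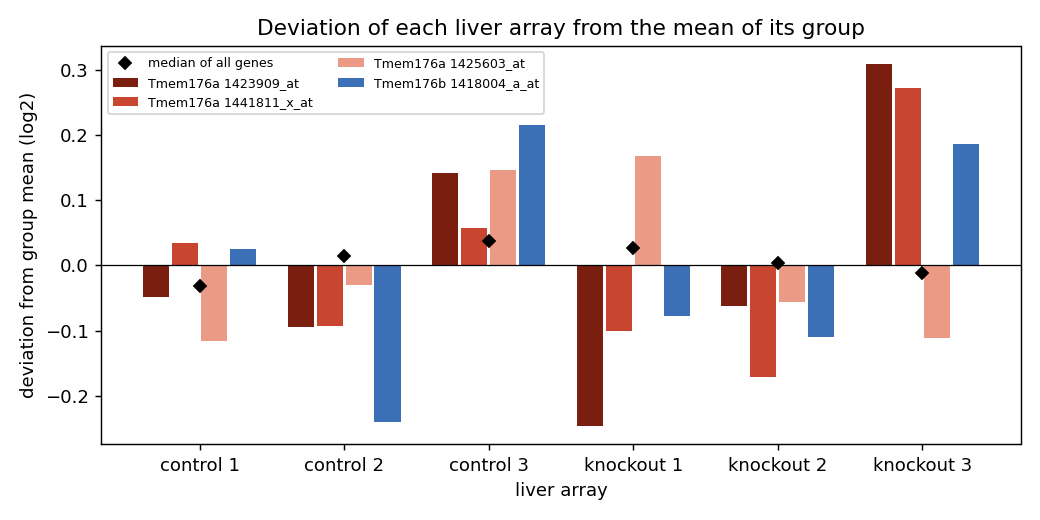
Deviation of each liver array from the mean of its group (log2) for the 3 Tmem176a probe sets and the Tmem176b probe set (bars), with the median deviation of all genes (diamonds). Control 3 is above its group mean in all 4 probe sets, and control 2 and knockout 2 are below it in all 4. Control 1 is mixed, and in knockout 1 and knockout 3 probe set 1425603_at goes against the other 3.

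The 10 genes with a probe set on each side of the pair were set beside it. In liver 0 of these 20 were called by limma, with 1 higher and 1 lower at an unadjusted p under 0.05. Since 0.0440% of all genes were called, 0 of 20 is also what the background share gives. Their differences ran from -1.09 to 1.69 with a median of -0.02, against 0.03 for all genes. On one side lies a cluster of Gimap genes, which encode GTPases of lymphocyte survival. The nearest of them, Gimap3, had 6.17, 5.38 and 5.57 in control and 6.75, 6.53 and 6.29 in knockout livers. Its difference was 0.82 (SE 0.26, limma adjusted p = 0.594), opposite in sign to the pair. Gimap1 had a difference of -0.35 (SE 0.14, limma adjusted p = 0.682), with all knockout arrays below all control arrays.

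On the other side the nearest gene is Aoc1, which encodes diamine oxidase, an enzyme that breaks down histamine. It had 6.04, 7.23 and 7.30 in control and 6.50, 6.52 and 4.27 in knockout livers, and the groups overlapped (-1.09, SE 0.74, limma adjusted p = 0.773). Fam221a had 0.57 (SE 0.35, limma adjusted p = 0.762). In F9 cells 2 of the 20 neighbours were called, against 7.20% of all genes, and nothing about the locus is read from this count. Igf2bp3, which encodes an RNA-binding protein of embryonic and tumour cells, rose by 0.84 from 7.33 ± 0.07 (SE 0.07, limma adjusted p = 0.00061). Malsu1, which encodes a factor of mitochondrial ribosome assembly, fell by 0.37 from 11.15 ± 0.06 (SE 0.07, limma adjusted p = 0.013). The call of Malsu1 ended without F9 knockdown replicate 2 or 3, with a replicate block, and for the mean of its probe sets (-0.22).

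**Figure D4:**
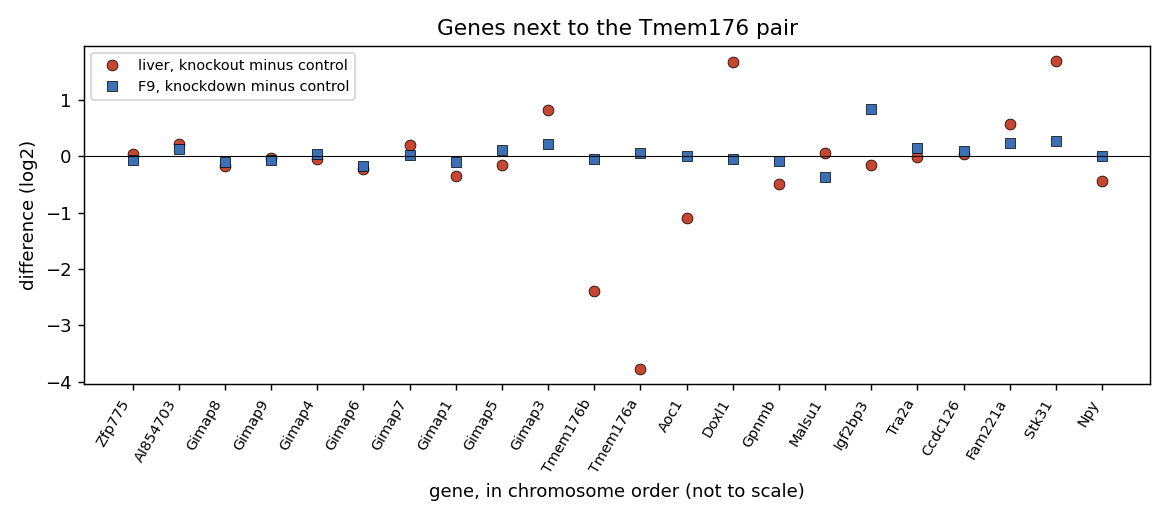
Treated minus control difference (log2) in liver (circles) and F9 cells (squares) for Tmem176b, Tmem176a and the 10 genes with a probe set on each side, in chromosome order and not to scale. In liver the pair (-2.40 and -3.77) lies below all 20 neighbours, whose values run from -1.09 to 1.69. The pair was chosen for its liver difference, so nothing is read from its place.

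The genes whose liver profile was most like that of each member were found by the root mean square difference of log2 values, centred on the control mean of each gene, over the 6 arrays and 16338 named genes. Nearest to Tmem176a was Nr1i2 (0.17), which encodes the xenobiotic receptor PXR. Nr1i2 had 9.76, 9.94 and 9.95 in control and 6.00, 6.31 and 6.66 in knockout livers. Next were Slco1a4 (0.50), an organic anion transporter gene that also lies on chromosome 6, and Ldhd (0.51), which encodes D-lactate dehydrogenase. Mmp19 (0.56), a matrix metalloproteinase gene, and Hnmt (0.61), which encodes the histamine-inactivating enzyme histamine N-methyltransferase, followed. Their knockout minus control differences were -3.59 to -3.12, values that this likeness itself selects. The second probe sets of Nr1i2 (-5.15), Ldhd (-2.29) and Mmp19 (-4.19) had the same sign. Tmem176b ranked 17th, at 0.98, because its fall was smaller.

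Nearest to Tmem176b was Kcnma1 (0.21), which encodes a potassium channel, in its brightest probe set. The 5 probe sets of Kcnma1 ran from -2.37 to 2.68, so that likeness holds for 1 probe set of the gene. Next came Rdh16f2 (0.25), a gene of the retinol dehydrogenase family, with 12.46, 12.07 and 12.76 in control and 10.37, 10.35 and 10.29 in knockout livers. Olfr15 (0.29), an olfactory receptor gene, and Zmynd12 (0.31) are dim in liver, with control means of 6.41 and 4.99. Dcp1b (0.32), which encodes a factor of mRNA decapping, had probe sets from -2.25 to 0.28. Kcnma1 and Dcp1b are dim in liver too, with control means of 6.25 and 6.40. Tmem176a ranked 163rd from Tmem176b. In F9 cells the nearest genes (Itga2, Speer4f1, Taf7l2, Mmp8 and Ubxn10 for Tmem176a, and Pard3b, Gstm3, Dpep3, Tcea2 and Slc12a3 for Tmem176b) had control means of 3.64 to 6.44 and differed by -0.07 to 0.09 between groups, so likeness there is likeness to a gene without a difference.

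The MS4A relatives were measured in 16 of 19 genes, and 0 were called in liver (limma, also 0 at an unadjusted p under 0.05). Their values were 13 negative and 3 positive with a median of -0.35, beside 0.03 for all genes, and ran from -1.27 to 0.63. Ms4a1, which encodes CD20, was -0.70 (SE 0.29, limma adjusted p = 0.694) and turned to 0.15 when its probe sets were averaged. Ms4a13 was -0.93, Ms4a3 -0.52 and Ms4a4c -0.46, each with overlapping groups. No relative had a difference as large as that of either Tmem176 gene. The pair was chosen for its liver difference, so nothing is read from this. In F9 cells 0 of the 16 were called by limma, against 7.20% of all genes. There 1 was lower at an unadjusted p under 0.05, Ms4a4d (-0.31).

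Of the inflammasome genes 13 of 14 were measured, and 0 were called in liver (limma, with 1 lower at an unadjusted p under 0.05). The median was -0.26, with 10 negative and 3 positive. Naip2, which encodes a sensor of bacterial secretion systems, was -1.04 (SE 0.27, limma adjusted p = 0.504), with 7.65, 7.61 and 7.21 in control and 6.96, 6.12 and 6.28 in knockout livers. Txnip, which encodes a thioredoxin-binding protein, was -0.48, Casp1, the protease gene of the complex, -0.40 and Gsdmd, the pore-forming gasdermin gene, -0.26, each with overlapping groups. Of the 9 class II presentation genes measured 0 were called in liver (limma, with 1 lower at an unadjusted p under 0.05). Their median was -0.24, with 7 negative and 2 positive, and they ran from -1.09 to 0.25. H2-Eb1, a class II beta chain gene, was -1.09 (SE 0.37, limma adjusted p = 0.637), H2-Aa -0.86, H2-Ab1 -0.45 and Lgmn, a lysosomal protease gene, -0.24. All knockout arrays lay below all control arrays in H2-Eb1 and H2-Aa, as in 6.36% of all genes. The groups overlapped in H2-Ab1 and Lgmn.

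Since the pair is known from myeloid cells, markers of the cells that a liver holds were set beside it. The Kupffer cell and macrophage markers were 14 of 15 negative with a median of -0.24, and 0 were called in liver by limma, also 0 at an unadjusted p under 0.05. Their summed linear signal was 22089 to 30107 on control and 17748 to 22609 on knockout arrays, which overlap. Csf1r, the receptor gene of macrophage growth factor, was -0.39, Cd5l -0.38, Clec4f, a lectin gene of Kupffer cells, -0.28 and Cd68 -0.26. The lowest of the 15 was Marco, a scavenger receptor gene, at -0.65, which was singled out after its value was seen. Clec4f was 10.97 ± 0.07 in control and 10.69 ± 0.21 in knockout livers (SD, n = 3 each), with overlapping groups, and cell numbers were not measured.

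The dendritic cell markers were 6 positive and 5 negative of 11 measured, with a median of 0.10. Limma called 0, with 2 lower at an unadjusted p under 0.05, Irf8 (-0.64, SE 0.20) and Siglech (-0.59, SE 0.20), which encode a transcription factor of dendritic cells and a lectin of plasmacytoid dendritic cells. With the mean of its probe sets Irf8 was -0.22. Their summed signal was 876 to 1076 on control and 858 to 907 on knockout arrays. Batf3 was -0.49 and Irf4 0.46. The monocyte and neutrophil markers had a median of -0.54 over 7 genes that are dim in liver, with 0 called (limma, also 0 at an unadjusted p under 0.05). Chil3 was -2.28 from a control mean of 3.60 ± 2.14, S100a8 -0.65, Csf3r -1.11 and F13a1 -0.54. Their summed signal was 301 to 507 on control and 184 to 365 on knockout arrays. The part of these cells in the fall of the pair was not tested.

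Among lymphoid markers the B cell list had a median of -0.60 over 6 genes, 4 negative and 2 positive (Cd79b -0.56, Cd22 -0.64, Cd79a -1.03). With the mean of its probe sets Cd22 was -0.05. The list of T, NK and innate lymphoid cells had a median of 0.01 over 10 genes, 5 negative and 5 positive (Gzma -0.71, Il7r 0.65, Cd3g -0.44, Gata3 0.32). Limma called 0 in both, with 1 and 0 lower at an unadjusted p under 0.05. The endothelial markers (median -0.06 over 8 genes; Ptprb -0.17, Cdh5 -0.16, Lyve1 0.33, Tek 0.12) and the stellate cell markers (median -0.06 over 8; Lrat -0.47, Pdgfrb -0.29, Des 1.06, Col1a1 -0.33) gave 0 calls, also 0 at an unadjusted p under 0.05. Signs of single genes turned with the mean of probe sets, for Cdh5 to 0.22 and for Col1a1 to 0.54. They also turned for Col1a1 and Tek, and for Epcam, Sox9 and Gata3 of the other lists in this paragraph, when 1 array was left out (knockout 3, control 3, control 1, knockout 1 and knockout 2 in that order). The cholangiocyte markers (median 0.13 over 5; Krt7 1.03, Krt19 0.94, Epcam 0.13, Sox9 -0.23) gave 0 calls, also 0 at an unadjusted p under 0.05.

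The hepatocyte markers were 12 of 13 positive with a median of 0.26 and 0 calls (limma, with 3 higher at an unadjusted p under 0.05). Ttr was 0.41, Cyp2e1 0.48, Apoa1 0.32 and Hnf4a 0.29, none of them called, and Apoa1 was -0.06 after quantile normalisation. The lowest values over the alternatives were 0.048 for Ttr, 0.15 for Cyp2e1 and 0.078 for Hnf4a. Their summed signal was 356990 to 443435 on control and 497327 to 518822 on knockout arrays, which do not overlap. These sums were taken on the deposited scale only, so an amount of hepatocyte RNA is not read from them. The negative one was Ass1, a urea cycle gene (-0.54), named after its value was seen. Markers of embryonal carcinoma (Dppa4 1.45, Lin28a 1.30, Dppa5a -1.05, Utf1 -0.23) served as transcripts of the other tissue. Markers of parietal and visceral endoderm (Afp -1.98, Thbd 0.31, Gata6 -0.18, Lama1 0.51, but -0.05 without control liver 2) were listed too. The endoderm list is not foreign to liver, where its median control level was 7.49, above the medians of the control arrays (6.39 to 6.54). Limma called 0 genes of both lists in liver, with 1 higher and 1 lower at an unadjusted p under 0.05.

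**Figure D5:**
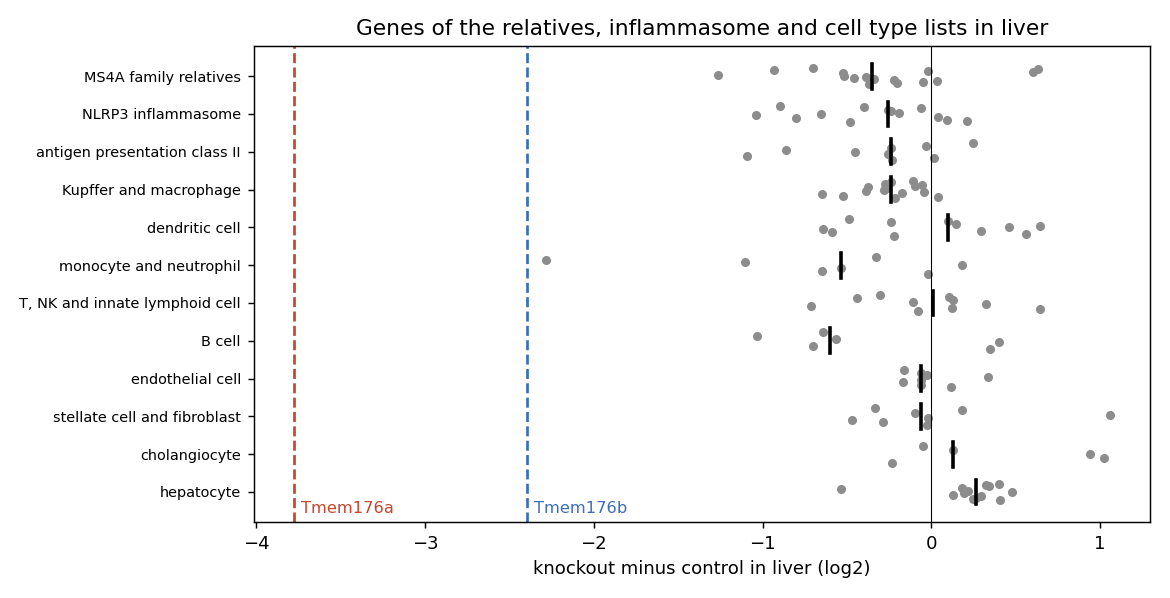
Knockout minus control difference in liver (log2) of each gene (points) and the median (bar) of 12 lists, with Tmem176a (-3.77) and Tmem176b (-2.40) as dashed lines. No gene of these lists reaches -2.40, and the lowest is Chil3 at -2.28, a dim gene whose control SD is 2.14. The pair was chosen for its liver difference, so nothing is read from its place.

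Over all 15 lists, the neighbours included, 159 genes were measured and 0 were called in liver by limma, with 5 higher and 7 lower at an unadjusted p under 0.05. The share of all genes under that unadjusted threshold is not given here, so nothing is read from such counts in any list. All 3 knockout arrays lay below all 3 controls in 14 of the 159, or 8.81%, and above them in 11, against 6.36% and 8.42% of all genes. Of the list genes given with liver values, the lower ones were Gimap1, Ms4a1, Naip2, H2-Eb1, H2-Aa, Csf1r, Irf8, Siglech, Batf3, Chil3, Cd79b, Pdgfrb and Ass1. The higher ones were Gimap3, Dppa4, Ttr, Cyp2e1, Apoa1 and Hnf4a. In F9 cells 4 of the 159 rose and 2 fell, against 7.20% of all genes called. Besides Igf2bp3 and Malsu1 these were Sox7, a transcription factor gene of the endoderm list (0.71, limma adjusted p = 0.0015), the macrophage marker Cd68 (0.71 from 5.10, limma adjusted p = 0.0029), the endothelial marker Pecam1 (-0.74 from 6.39, limma adjusted p = 0.0015) and Lgmn (0.33, limma adjusted p = 0.046). The call of Lgmn ended whichever 1 of the 6 arrays was left out. Pycard, the inflammasome adaptor gene and bright in F9 cells (10.77 ± 0.07 in control), was -0.25 in knockdown cells (SE 0.07, limma adjusted p = 0.069). With the mean of its probe sets Pycard was -0.13, and its limma adjusted p reached 0.3 over the alternatives. The Kupffer cell, dendritic cell and MS4A lists had median control levels of 4.43, 4.42 and 4.06 in F9 cells, below the array medians.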

How the data were processed

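RNA (100 ng per sample) of 6 livers and 6 F9 samples was measured on Affymetrix mouse arrays. The deposited values are log2 signals made by the authors. Per the submitters' processing notes R 3.0.1 and affy 1.38.1 were used, and the method of summary and normalisation is not given in the sources used here. The liver arrays each have a 2%-trimmed linear mean of 500.0, and the F9 arrays share nearly 1 distribution, so each tissue was fitted alone. The combined table holds the same values (largest difference 0). The array platform's annotation named 1 gene for 34945 probe sets, several for 932 and none for 9224. Entrez identifiers matched 34741 to RefSeq. Each of 18193 genes was represented by its brightest probe set, by the mean of the 6 arrays of a tissue.

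Differences (treated minus control) were tested with limma 3.58.1 in R 4.3.3 (lmFit, eBayes, two-sided, no filter, threshold of 0.05 after Benjamini-Hochberg adjustment across all genes), a procedure tested on simulated data. The members, lists and tests were chosen with earlier results of these data known. Named were the members, the 5 nearest profiles, called list genes and up to 4 per list by p. For F9 list genes outside these, counts alone are given. Promoter sequences are RefSeq's (GRCm38.p6). Alternatives were a replicate block, quantile and median scaling, the mean of probe sets or each by itself, filters on the dimmest 25% or 50%, a trended robust prior, array weights, a threshold of 0.10 and each array left out. The number of arrays limits the precision.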

Additional observations from a re-analysis of the deposited data

Results flagged for a closer look

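The hybridisation controls, which lie outside the gene comparison, were 0.66 higher on knockout than on control liver arrays, with no overlap between the groups, while Tmem176a and Tmem176b were lower there.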

How the results depend on the processing

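The liver differences of Tmem176a and Tmem176b stayed negative under all alternatives. Tmem176a was -3.25 with the mean of its probe sets, -2.95 in probe set 1425603_at and -3.04 in 1441811_x_at, and -3.93 to -3.65 with 1 array left out. Tmem176b ran from -2.52 to -2.29 with 1 array left out. The liver calls were less stable than the differences. Tmem176a lost its call with a replicate block and without any 1 array other than knockout 3. Tmem176b lost its call with a replicate block, quantile or median scaling, the mean of probe sets, or any 1 array left out. In F9 cells neither gene was called under any alternative. With 1 array left out the difference ran from -0.03 to 0.15 for Tmem176a and from -0.13 to 0.0665 for Tmem176b, so both signs turned, and Tmem176b gave 0.0345 with array weights. Over all alternatives the limma adjusted p was 0.421 to 0.99 for Tmem176a and 0.608 to 0.942 for Tmem176b. Without the dimmest 50% of genes neither was tested in F9 cells, and without the dimmest 25% both kept their values. The within-array difference of the pair in F9 cells ran from 0.08 to 0.12 with probe set 1441811_x_at, and was 0.08 with 1423909_at and 0.04 with 1425603_at.

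Genes called in liver were 8, and 0 to 3 with 1 array left out: 3 without knockout 3 and 0 without any other. They were 2 after quantile normalisation or with the mean of probe sets, 3 when each probe set was tested by itself, 25 and 67 without the dimmest 25% and 50%, 89 with an intensity trend and 17 at a threshold of 0.10. In F9 cells 1310 genes were called, 520 to 1451 with 1 array left out, 2285 with array weights and 1993 at 0.10. Of the list genes in F9 cells 6 were called, 4 to 6 with 1 array left out, 10 with the trend, 14 with array weights and 12 at 0.10. Samples with the same replicate number did not deviate together (r across genes -0.05 to 0.01 in liver and -0.22 to 0.01 in F9 cells, and not every sample correlated best with its own number). The replicate block left 0 genes called in liver and 662 in F9 cells, 4 of them list genes, and in F9 cells Tmem176a (adjusted p = 0.875) and Tmem176b (0.915) were not called. The cause of these changes was not tested.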
